A study of Mus musculus with 2 samples.

Results

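Cells of the embryonic mouse retina whose open chromatin was rich in CRX and OTX binding patterns numbered 145 among 1941 cells analysed, 63 of 890 in replicate 1 and 82 of 1051 in replicate 2. They are called CRX/OTX-high cells here. They were chosen by measured values: a cell had to lie in the top 15% of its library for the mean log2 share of the motifs Crx, OTX1, OTX2 and GSC. It also had to lie outside the top 25% for POU4F1 to POU4F3, outside the top 25% for TEAD1 to TEAD4, and outside the top 8% for SP1, SP3, SP4, KLF14 and KLF16. All other analysed cells, 827 and 969, served as the comparison.

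The study measured chromatin accessibility in dissociated whole retina of wild-type mice at E14.5, with the droplet-based single-cell assay of 10x Genomics, and belongs to work on regulatory DNA of retinal ganglion cells. There was 1 group, with no treatment or mutant allele, in 2 replicate libraries. Nothing in the labels ties the libraries to separate animals, so SDs and p-values below describe how 2 libraries differ, possibly for technical reasons alone. The values were counts of transposase cuts per cell for 579 transcription factor motifs. Each cut is credited to all motifs of the peak it falls in, so a count is the openness of all peaks holding a sequence pattern and not binding by the factor.

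CRX and OTX2 are homeodomain transcription factors that act one after the other in photoreceptor formation. In textbook accounts OTX2 is switched on in neural precursors as they leave the cell cycle and turns on Crx, and both then bind the promoters and enhancers of rod and cone genes. OTX2 also acts in bipolar cells, in the pigment epithelium and in precursors that go on to form horizontal cells. GSC and OTX1 are relatives that read nearly the same sequence, because all carry a lysine at the same place of the DNA-contacting helix. In the retina at this stage, ganglion cells, cones, horizontal cells and the first amacrine cells are being born, while rods are mostly made later.

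The core that these homeodomains read is TAATCC, or GGATTA on the other strand. To show it in place, 17 photoreceptor genes were looked up among RefSeq promoters of build GRCm38.p6, from 250 bases before to 50 after each gene's start, and 14 were found. Of these, 6 held the core on either strand: Sag, Rbp3, Gnat2, Crx, Otx2 and Thrb. The 14 genes had 18 promoters in the table, and 6 of these held it. Over all 32851 promoters in the table, 2320 (7.06%) held it. The 30-base stretches shown, written in the direction of the gene with the core in capitals, come from Crx and Otx2, the regulators themselves, and from Rbp3, which encodes the retinoid-binding protein between photoreceptors and pigment epithelium. All lay upstream of the gene's start, by 94 and 21 bases in Crx, 211 in Otx2 and 69 in Rbp3.
Crx, chr7:15880032-15880061, minus strand: gtgggggtggtgGGATTAagcagacggtgc
Crx, chr7:15879959-15879988, minus strand: ccaccttccctgGGATTAcccttccagatc
Otx2, chr14:48665303-48665332, minus strand: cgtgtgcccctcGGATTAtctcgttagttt
Rbp3, chr14:33953922-33953951, plus strand: ttgaattagacaGGATTAaaggcttagcag
A match of letters is a description and not a binding site. The motif counts are sums over all peaks, so whether these promoters were open in the CRX/OTX-high cells was not analysed here.

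Some facts of the libraries touch every result. Replicate 1 held 2422 barcodes and replicate 2 held 3033, and 1828 barcodes occurred in both. A barcode was kept in the library where its total was higher, if it had at least 300000 counts, which kept 36.7% and 34.7% of barcodes and 98.3% and 97.3% of counts. Among the CRX/OTX-high cells, 63 of 63 and 71 of 82 had a shallow copy of their barcode in the other library, with a median of 1.84% and 0.819% of the cell's total. The 11 cells of replicate 2 without such a copy were compared with the other cells without one: their mean log2 share was 0.49 higher for Crx, 0.087 for OTX2 and 0.19 for NEUROD1, against 0.25, 0.083 and 0.20 among the barcodes found in both.

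The label of photoreceptor precursors was checked as far as the motifs allow. Crx, OTX1 and OTX2 were the markers, and the rule used them, so their height is no check. The other motifs of photoreceptor factors stood near the comparison cells, as given below. Motif counts hold no gene, so marker genes of photoreceptors or of the retina as a whole were not analysed here. The cells are therefore named by their motifs and not by a cell type.

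The CRX/OTX-high cells made up 7.08% of the cells of replicate 1 (95% Wilson interval 5.57 to 8.95) and 7.80% of replicate 2 (6.33 to 9.58), with a mean of 7.44% ± 0.51 (SD, n = 2 libraries). Wilson intervals cover counting error only. In replicate 1, 134 cells reached the top 15% of the CRX/OTX score, and 71 of them were left out by a limit on the other scores. In replicate 2 it was 76 of 158. Of those 71 and 76, the limit on POU4F motifs removed 26 and 27, that on TEAD motifs 16 and 21, and that on SP and KLF motifs 34 and 34, with some removed by more than 1 limit. The score of a chosen cell, written as log2 above the median of its library, began at 0.068 in replicate 1, and the nearest cell below the threshold had 0.065. In replicate 2 the cells on either side had 0.072 and 0.071. No gap separated the chosen cells from the rest. The median chosen cell had 0.14 and 0.13, and the highest had 0.28 and 0.33.

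The CRX/OTX-high cells were somewhat shallower than the others. Their median total was 3129987 motif counts in replicate 1 and 3157692 in replicate 2, against 3563137 and 3542178 in the other cells, a ratio of 0.885 ± 0.0092 (SD, n = 2). When each library was divided into 3 equal parts by total, CRX/OTX-high cells were 8.75% and 8.86% of the shallowest part and 5.39% and 5.14% of the deepest. The deepest cells of the set had 11323394 and 11185285 counts, against 23789174 and 18595593 among the others. The others were far more numerous, 827 and 969 against 63 and 82. The part of group size in these maxima was not tested. No doublet caller was run, and these totals cannot tell whether the set holds doublets.

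**Figure D1:**
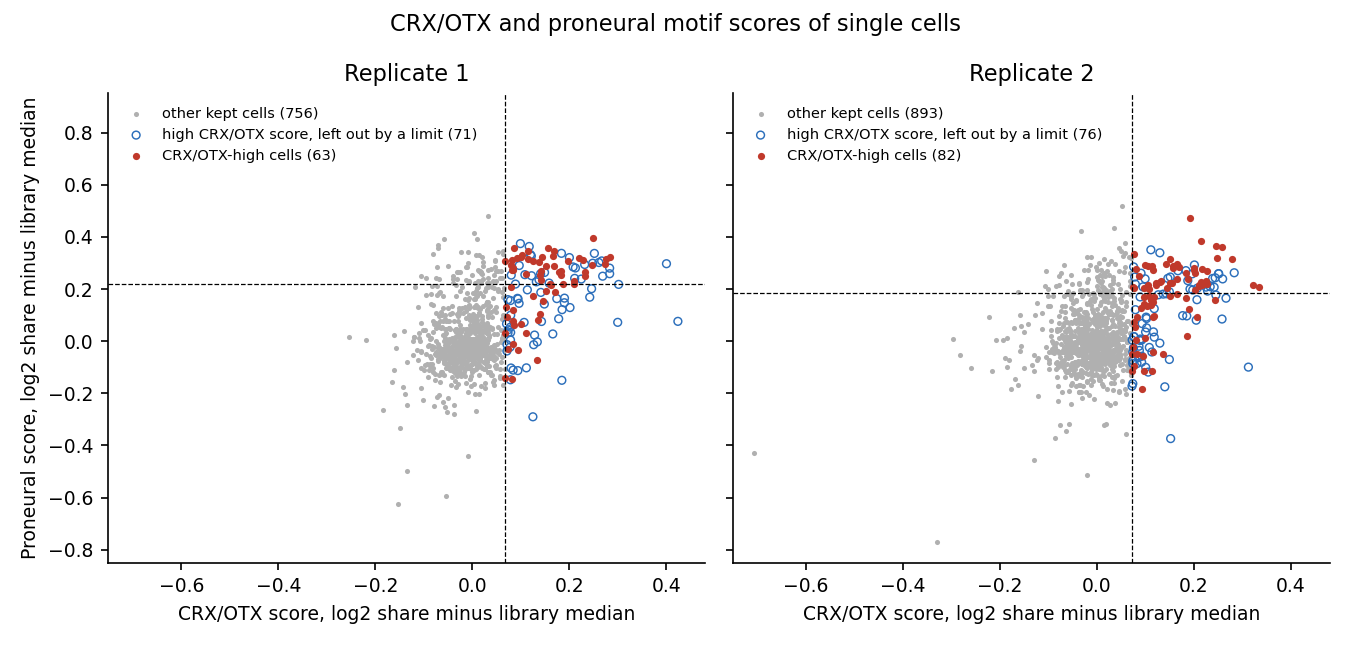
Each point is 1 analysed cell of replicate 1 (left) or replicate 2 (right); the x axis is the CRX/OTX score and the y axis the proneural score (NEUROD1, NEUROD2, Neurog1, Atoh1), both as log2 share minus the library median. Dashed lines mark the top 15% of each score: the 63 and 82 CRX/OTX-high cells (red) lie right of the vertical line by construction, and 40 and 48 of them lie above the horizontal line.

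The 4 motifs that set the choice are described first, with no test. Crx, the photoreceptor homeodomain factor, took 1.27 of every 10000 motif counts in the CRX/OTX-high cells of replicate 1, against 1.08 in the others, and 1.22 against 1.04 in replicate 2. These are the highest log2 ratios of the 4, 0.24 and 0.23. GSC, a regulator of the early embryo's organiser with the same core, took 3.35 against 3.05 and 3.27 against 2.91, with log2 ratios of 0.14 and 0.17. OTX2 took 35.2 against 33.2 and 34.9 against 33.1, with log2 ratios of 0.085 and 0.077. OTX1, its close paralog, took 13.4 against 12.7 and 13.3 against 12.7, with log2 ratios of 0.077 and 0.065. The rarest of the 4 patterns, Crx, thus differed most and the common OTX patterns least. In most chosen cells the 4 motifs were raised together: all 4 stood above the library's median in 53 of 63 and 67 of 82 CRX/OTX-high cells (84.1% and 81.7%), and in 82 of 827 and 86 of 969 others (9.92% and 8.88%).

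Each motif was then measured in cells chosen by the other 3, so that it had no part in its own choice. The mean log2 share per cell was 0.16 ± 0.016 (SD, n = 2) higher for Crx in such cells than in the rest, against 0.26 when Crx was part of the score. For GSC it was 0.12 ± 0.0011, against 0.16. For OTX2 it was 0.083 ± 0.0050 against 0.086, and for OTX1 0.073 ± 0.0083 against 0.080. The values of OTX2 and OTX1 thus changed little when they were left out of the score, while those of Crx and GSC were smaller. OTX1 and OTX2 had r = 0.61 and 0.57 across the cells of the 2 libraries, so leaving out either kept its near relative in the score. The cells so chosen included 81.7% to 95.1% of the CRX/OTX-high cells. All 4 patterns share peaks, so the values are not independent of each other and are no independent check of the set.

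Individual cells spread widely around these means, and Crx spread most. The CRX/OTX-high cells of replicate 1 had log2 Crx shares from 0.019 to 0.54 above the library median, with a median of 0.21 and an SD of 0.12. In replicate 2 they ran from -0.0091 to 0.71, with a median of 0.23 and an SD of 0.15. A median of 426 and 398 Crx counts per cell gives a counting SD of 0.070 and 0.072 on the same scale, a sizeable part of the Crx spread. OTX2, with a median of 11354 and 11106 counts per cell, had a counting SD of 0.014 in each library and a spread of 0.053 and 0.054. Its middle cells were at 0.10 and 0.088. Crx was above the library median in 63 of 63 and 80 of 82 cells, and OTX2 in 59 of 63 and 76 of 82.

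The motifs of the 3 limits were used by the rule and are given with no test. The POU4F motifs, read by the ganglion cell factors POU4F1 to POU4F3, had a median log2 ratio of -0.088. The TEAD motifs, read by the Hippo pathway factors active in progenitors, had -0.064, and the SP and KLF motifs of promoters had 0.0077. Against other cells that pass the same limits, POU4F1 stood at 0.012, POU4F3 at 0.0068 and POU4F2 at -0.021. The 4 TEAD motifs stayed lower against those cells, from -0.064 for TEAD4 to -0.049 for TEAD2, with a median of -0.057. The CRX/OTX and TEAD scores had r = -0.18 and -0.17 over all analysed cells of the 2 libraries.

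Beyond the rule, 186 motifs were correlated with one of its 16 motifs across cells (absolute Pearson r above 0.5 in either library, with depth taken out) and are described without a test. The other 377, of which 355 had distinct counts, were tested by edgeR's quasi-likelihood F test on counts summed per library, with the library as a block and Benjamini-Hochberg adjustment over all 579 motifs. At an adjusted p under 0.05, 66 of the 377 were higher (17.5%) and 68 were lower (18.0%) in the CRX/OTX-high cells. With a log2 ratio of at least 0.05 there were 35 higher (9.28%) and 20 lower (5.31%). All 134 called motifs moved the same way in both libraries, as did 299 of the 377. For the called motifs this adds no support, since the test asks whether a difference repeats over the 2 libraries. The shifts were small, with a median absolute log2 ratio of 0.017. The test had 1 residual degree of freedom and borrowed the spread of all motifs, which share peaks, and without the library term no motif passed: 0 were higher and 0 lower by edgeR at an adjusted p under 0.05, with 29 of 377 under an unadjusted 0.05. That loss holds for every call named below, and DESeq2 with the block called 53 higher and 53 lower.

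**Figure D2:**
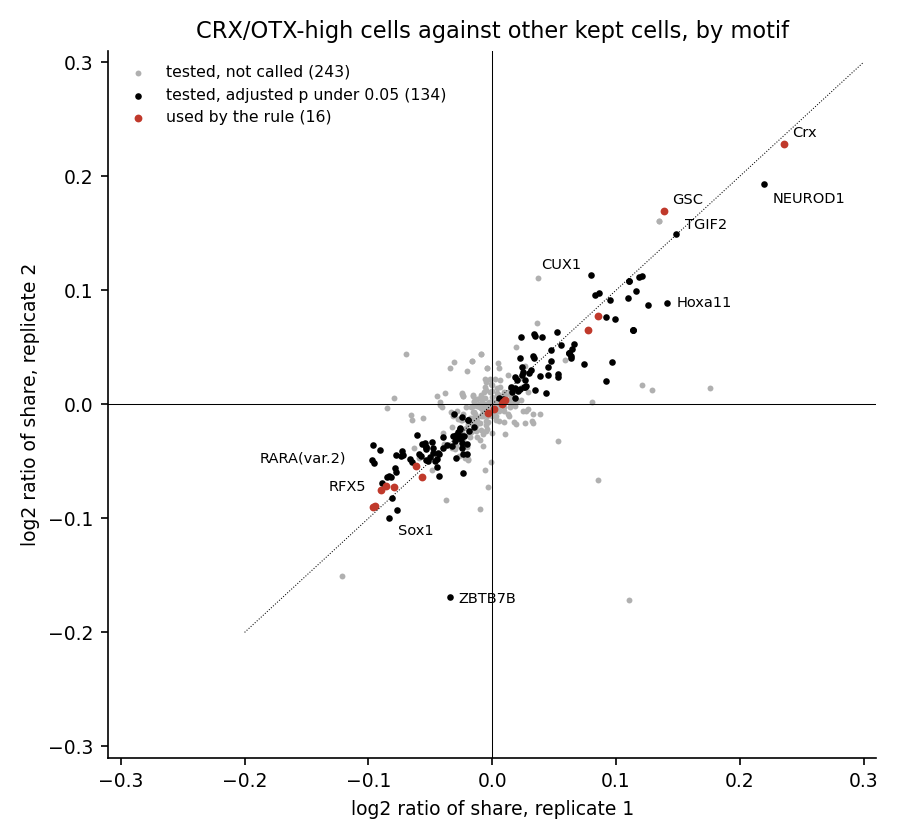
Each point is 1 motif; the axes are its log2 ratio of share, CRX/OTX-high cells to other cells, in replicate 1 (x) and replicate 2 (y), and the dotted line is equality. The 134 called motifs (black) lie in the quadrants where both libraries have the same sign, which the test favours, and NEUROD1 lies closest to the rule's own Crx.

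The close relatives of OTX followed. GSC2, PITX1, PITX3 and DMBX1 read the same core, and all 4 of their motifs were higher in both libraries, with a median log2 ratio of 0.093. GSC2 was the only one apart enough to test: it took 2.31 of 10000 counts against 2.17 in replicate 1 and 2.34 against 2.22 in replicate 2, a log2 ratio of 0.088 ± 0.0099 (SE; edgeR adjusted p = 6.95e-07). Among those not tested, Dmbx1, a brain homeodomain factor, was at 0.18 and Pitx1, a factor of hindlimb and pituitary, at 0.056. These patterns share the core, and so peaks, with OTX2. GSC2 had r = 0.41 and 0.37 with OTX2 across cells, under the limit for testing. The rule thus bears on GSC2 as well, and its p is no independent support of the set.

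Motifs of the proneural basic helix-loop-helix factors had the highest median log2 ratio of the lists outside the rule. These factors push progenitors to become neurons, and NEUROD1 is also known to act in photoreceptors. All 6 listed motifs were higher in both libraries, with a median log2 ratio of 0.16 against -0.00056 over the 377 tested motifs. NEUROD1 had the highest ratio of all tested motifs: 5.15 of 10000 counts against 4.42 in replicate 1 and 4.93 against 4.31 in replicate 2. Its log2 ratio was 0.21 ± 0.0078 (SE; edgeR adjusted p = 1.73e-13). Over its settings the adjusted p ran from 8.47e-109, with no limit on SP and KLF motifs, to 0.0804, without the library term. NEUROG2, a factor of cells leaving division, was the other tested member and was called, at 0.057 (edgeR adjusted p = 0.00214). The remaining 4 were correlated with OTX2 or TEAD3 and not tested: NEUROD2 was at 0.18, Neurog1 at 0.17, Atoh1 at 0.14 and Ascl2 at 0.097. NEUROD1 itself was correlated with OTX2 across cells, with r = 0.48 in replicate 1, just under the limit for testing.

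The proneural motifs were also read cell by cell, as a description with no test. A score of NEUROD1, NEUROD2, Neurog1 and Atoh1 placed 40 of 63 CRX/OTX-high cells of replicate 1 in the library's top 15% (63.5%, Wilson interval 51.1 to 74.3). In replicate 2 it was 48 of 82 (58.5%, 47.7 to 68.6), for a mean of 61.0% ± 3.5 (SD, n = 2). Of the other cells, 11.4% in each library were so placed, and of the other cells within the same limits 10.2% and 11.4%. The rule bears on this share: the CRX/OTX and proneural scores had r = 0.46 and 0.41 over all analysed cells, and NEUROD2, Neurog1 and Atoh1 were correlated with OTX2 beyond the limit for testing. Limiting both sets to cells from 0.5 to 2 times the median depth gave a mean of 63.3%. NEUROD1 stood above the library median in 58 of 63 and 71 of 82 CRX/OTX-high cells.

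The share also varied within the set. The CRX/OTX-high cells of each library were divided into 3 parts by the CRX/OTX score, which is the rule's own, so what follows describes how the 2 scores go together and is no independent result. In the part with the lowest scores, 9 of 21 in replicate 1 and 10 of 28 in replicate 2 were in the proneural top (42.9% and 35.7%). In the middle part it was 13 of 21 and 16 of 27 (61.9% and 59.3%), and in the highest part 18 of 21 and 22 of 27 (85.7% and 81.5%). The mean log2 share of NEUROD1 in the 3 parts, from lowest to highest score, was 0.13, 0.23 and 0.25 above that of all cells in replicate 1, and 0.065, 0.22 and 0.27 in replicate 2. Across the CRX/OTX-high cells the 2 scores had a Pearson r of 0.45 (n = 63) and 0.48 (n = 82), beside the 0.46 and 0.41 over all analysed cells. These are cells of shared libraries whose motifs share peaks. Depth moved with the gradient: the CRX/OTX score and log10 total had r = -0.28 and -0.37 in the set. The median total of the highest part was 2962808 and 2126092, against 2986415 and 3982124 in the lowest. The part of depth in the gradient was not tested.

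**Figure D3:**
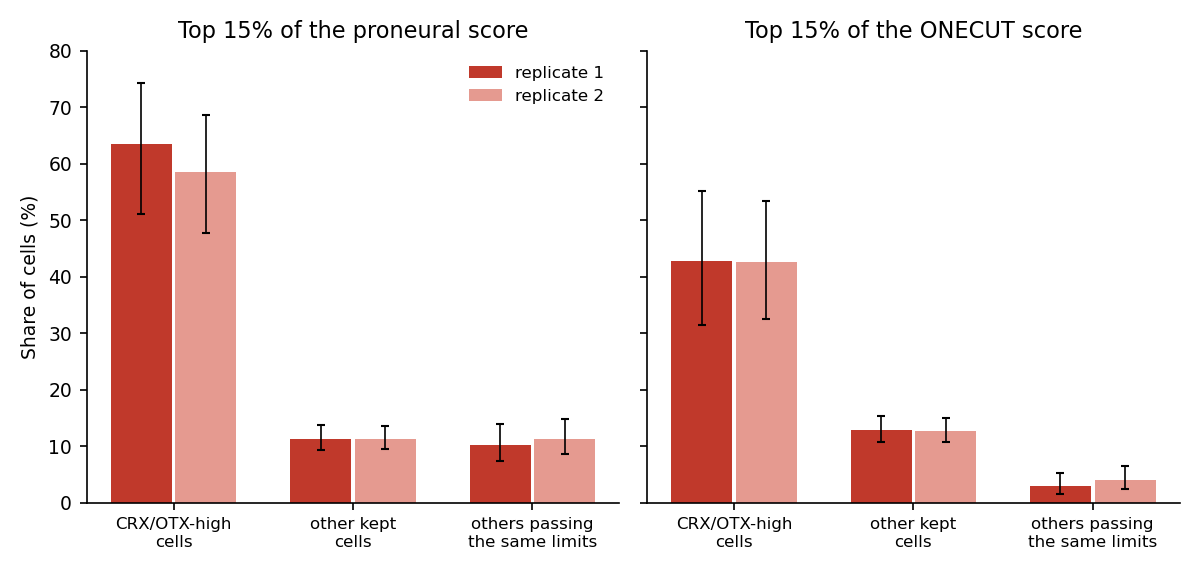
Bars give the share (%) of cells in the top 15% of the proneural score (left) and of the ONECUT score (right) in each library, for CRX/OTX-high cells, other analysed cells, and others passing the same POU4F, TEAD and SP/KLF limits; error bars are 95% Wilson intervals. The CRX/OTX-high bars stand at 63.5% and 58.5% on the left and 42.9% and 42.7% on the right, and the highest of the other bars is 12.9%.

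ONECUT motifs formed a further group. ONECUT1 and ONECUT2 are known in horizontal cells, ganglion cells and early cones, and act with OTX2 in precursors of cones and horizontal cells. ONECUT2 was higher, with 7.81 of 10000 counts against 7.47 in replicate 1 and 7.98 against 7.72 in replicate 2, a log2 ratio of 0.060 ± 0.0061 (SE; edgeR adjusted p = 1.72e-07). ONECUT3 was higher at 0.043 and CUX1, a cut homeodomain factor that reads a similar sequence, at 0.10. With an estimated dispersion CUX1 lost its call (edgeR adjusted p = 0.876, the highest over its settings, with 8e-12 the lowest). CUX2 was not called, at -0.0090, with -0.069 and 0.044 in the 2 libraries. So 3 of the 4 tested motifs of this list were called higher and none lower, beside 17.5% called higher over all tested motifs. ONECUT1 was correlated with POU4F1 and not tested, at 0.13, the highest of the list. The called motifs were also correlated with motifs of the rule, under the limit for testing. CUX1 had r = -0.49 and -0.41 with TEAD3, ONECUT2 0.34 and 0.37 with POU4F3, and ONECUT3 0.42 and 0.36 with POU4F1.

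By a score of the 3 ONECUT motifs, which had r = 0.29 and 0.24 with the CRX/OTX score over all cells, 27 of 63 and 35 of 82 CRX/OTX-high cells were in the library's top 15% (42.9% and 42.7%). The other cells had 12.9% and 12.7%, and others within the same limits 2.92% and 4.04%. ONECUT1 and POU4F1 were correlated across all cells (r = 0.52 in the library where it was higher). The part of each limit in these shares was not tested. All cells within the limits were the 63 and 82 CRX/OTX-high cells and 342 and 396 others, to be read beside the following shares. Of the ONECUT-high cells within the limits, 27 of 37 and 35 of 51 were CRX/OTX-high (73.0% and 68.6%). Of the proneural-high cells within the limits, it was 40 of 75 and 48 of 93 (53.3% and 51.6%).

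Taking both scores, 18 and 26 CRX/OTX-high cells were in the top 15% for proneural and ONECUT motifs alike (28.6% and 31.7%). A further 22 and 22 were proneural-high alone, 9 and 9 ONECUT-high alone, and 14 and 25 neither (22.2% and 30.5%). Within the CRX/OTX-high cells the 2 scores had r = 0.37 and 0.53, against 0.30 and 0.22 over all cells. The set was thus not uniform. Of the 14 and 25 cells with neither mark, 9 and 15 were in the part of lowest CRX/OTX score and 1 and 3 in the highest.

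**Figure D4:**
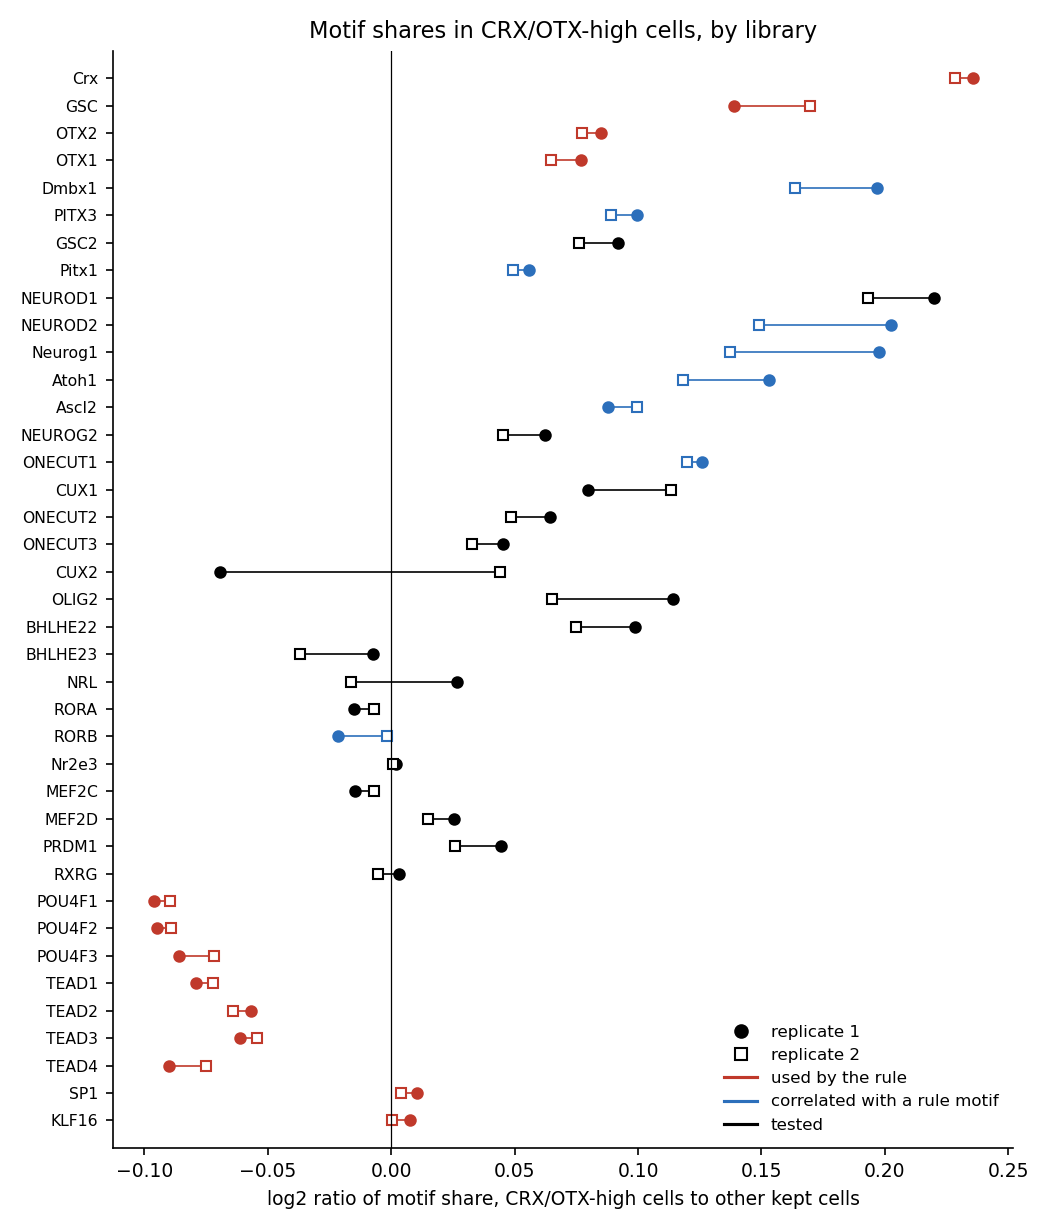
Log2 ratio of motif share, CRX/OTX-high cells to other cells (x axis), for the motifs of the rule (red), motifs correlated with them (blue) and tested motifs (black), in replicate 1 (filled circle) and replicate 2 (open square). The Crx, OTX, GSC, PITX and Dmbx1 motifs lie right of 0 in both libraries, as do the proneural and ONECUT motifs. CUX2 crosses 0, and the POU4F motifs lie left of it. The drawn photoreceptor motifs from NRL to RXRG lie between -0.022 and 0.045.

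The CRX/OTX-high cells were split by the proneural score to see what went with it. NEUROD1 is part of that score and correlated with OTX2, so the split itself bears on these values, which are given with no test. Values here are the mean log2 share minus that of all cells of the library, averaged over the 2 libraries with their SD. Crx was at 0.27 ± 0.037 in the proneural-high cells of the set and at 0.21 ± 0.0100 in the rest. OTX2 was at 0.10 ± 0.0019 against 0.045 ± 0.0020, and GSC at 0.17 ± 0.0028 against 0.11 ± 0.023. NEUROD1 was at 0.27 ± 0.0024 and 0.073 ± 0.019, and OLIG2 at 0.13 ± 0.00051 and 0.020 ± 0.044. ONECUT1 was at 0.16 ± 0.021 and 0.055 ± 0.035. Each of these 6 motifs was lower, in both libraries, in the cells outside the proneural top. Their median total was 3332537 and 3434149.5, against 3107595.5 and 3083513.5.

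Cells within the same limits that were proneural-high but not CRX/OTX-high numbered 35 and 45. Their NEUROD1 share, which the choice by the proneural score raises, was 0.26 ± 0.0098, beside 0.27 in the CRX/OTX-high, proneural-high cells, and OLIG2 stood at 0.15 ± 0.0019. Their Crx share was below that of all cells, -0.049 ± 0.0051, which their choice outside the CRX/OTX top favours, and OTX2 was at 0.0076 ± 0.0087. ONECUT1 was at -0.012 ± 0.0060 in them, against 0.16 in the CRX/OTX-high, proneural-high cells. These cells were deeper, with medians of 4181781 and 5352105 counts. ONECUT-high cells outside the set, 10 and 16, had ONECUT1 at 0.25 ± 0.014, Crx at 0.017 ± 0.0070 and NEUROD1 at 0.050 ± 0.0096. Cells with a high ONECUT score within the limits had NEUROD1 at 0.23 ± 0.016 inside the set and 0.050 outside it. The rule bears on this contrast, since the CRX/OTX score divides these cells and NEUROD1 was correlated with OTX2.

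The cells with a high CRX/OTX score that a limit left out also differed among themselves. Those left out for SP and KLF motifs had Crx at 0.33 ± 0.038, OTX2 at 0.11 ± 0.0085 and NEUROD1 at 0.20 ± 0.017, against 0.24, 0.080 and 0.19 in the CRX/OTX-high cells, beside SP1 at 0.088 and medians of 2069960.5 and 3233929 counts. Those left out for POU4F motifs had Crx at 0.21 ± 0.016, NEUROD1 at 0.12 ± 0.054 and POU4F1 at 0.14 ± 0.0100, with medians of 2822621.5 and 994900 counts. Those left out for TEAD motifs had Crx at 0.23 ± 0.024 but NEUROD1 at -0.071 ± 0.0029, ONECUT1 at -0.030 ± 0.0024 and OTX2 at 0.029 ± 0.012, with medians of 1354697.5 and 3044675 counts. GSC was at 0.094 ± 0.0037 in them. NEUROD1 was thus above the mean of all cells in the sets left out for SP and KLF or for POU4F motifs, in both libraries, and below it in the set left out for TEAD motifs. No test across these small sets was made.

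**Figure D5:**
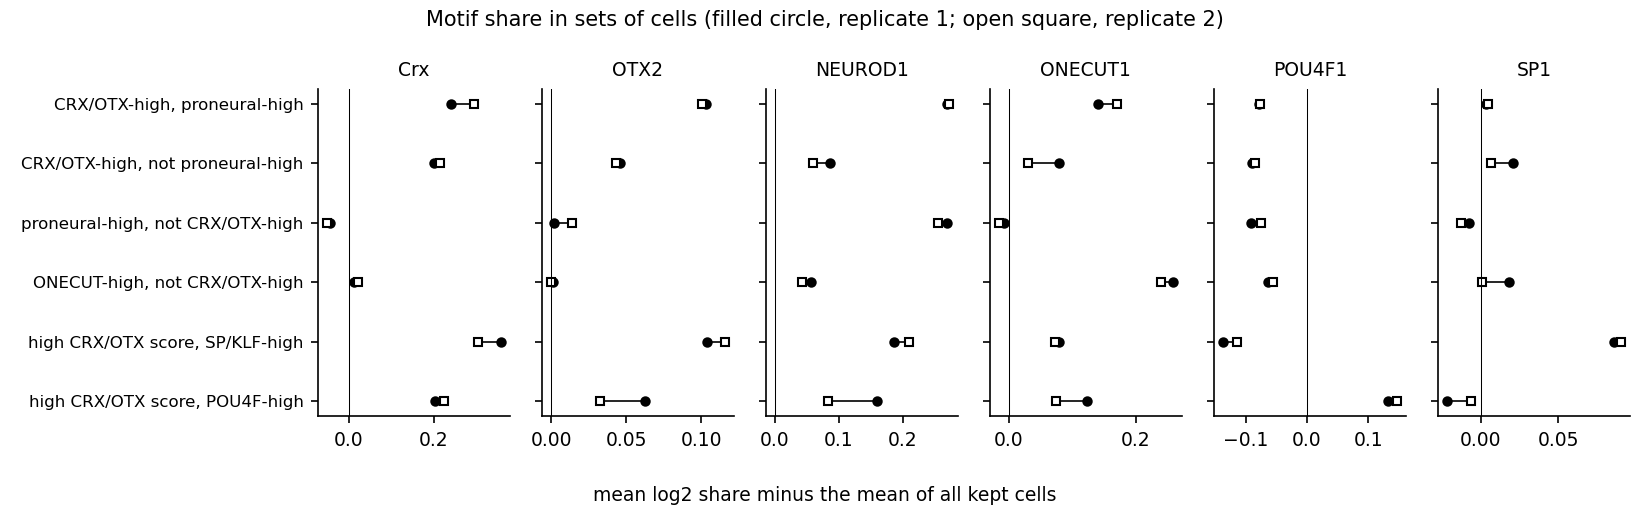
Mean log2 share minus the mean of all analysed cells (x axis) for 6 motifs in 6 sets of cells, in replicate 1 (filled circle) and replicate 2 (open square); the first 4 sets pass the POU4F, TEAD and SP/KLF limits. Crx and OTX2 are high in the CRX/OTX-high sets, and NEUROD1 in the proneural-high sets, by construction; ONECUT1 is near 0 in proneural-high cells that are not CRX/OTX-high.

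OLIG motifs rose with the proneural ones. OLIG2 marks a lineage of progenitors that give cones and horizontal cells, and BHLHE22 is a related repressor of retinal interneurons. OLIG1, OLIG2 and OLIG3 had identical counts and so give 1 value: 2.66 of 10000 counts against 2.46 in replicate 1 and 2.69 against 2.58 in replicate 2, a log2 ratio of 0.093 ± 0.011 (SE; edgeR adjusted p = 9.17e-07). BHLHE22 was higher at 0.090, and BHLHE23 was not called, at -0.019. That made 4 of 5 motifs called higher, or 2 of 3 distinct patterns, beside 17.5% called higher over all tested motifs. With no limit on SP and KLF motifs BHLHE23 was called lower, at -0.045 (edgeR adjusted p = 0.00187).

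The other motifs of photoreceptor factors moved little. Of 11 listed, 10 were tested: 2 were called higher, none lower, and 8 were not called, to be read against 17.5% called higher over all tested motifs. Their median log2 ratio was 0.00050. PRDM1, a repressor that keeps photoreceptor precursors from the bipolar fate, was higher at 0.039 (edgeR adjusted p = 0.00238), with 0.045 in replicate 1 and 0.026 in replicate 2. MEF2D, a cofactor of CRX in mature photoreceptors, was higher at 0.024 (edgeR adjusted p = 0.0343), with 0.025 and 0.015. It lost its call with an estimated dispersion, without TMM scaling, with DESeq2, and against depth-matched cells (0.018, edgeR adjusted p = 0.174, with 8.6e-05 to 0.998 over all its settings). NRL, the determinant of rods, was not called: 0.688 against 0.675 in replicate 1 and 0.676 against 0.684 in replicate 2, a log2 ratio of 0.0087 ± 0.019 (SE). Nr2e3, its partner in rods, was at 0.0050 and RORB, correlated with SP1 and untested, at -0.0080. Against others within the same limits Nr2e3 was called higher, at 0.0098 (edgeR adjusted p = 1.16e-05), and MEF2C lower, at -0.014 (edgeR adjusted p = 0.0218). With no limit on SP and KLF motifs RORA, RORA(var.2) and MEF2C were called lower.

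Lists of other retinal cell types were counted in the same way. EBF1, of ganglion cells, was called higher at 0.029 (edgeR adjusted p = 0.0305), and ISL2, correlated with POU4F1, stood at 0.00079. EBF1 lost its call with DESeq2 and with the top 20% of the CRX/OTX score. Against others within the same limits EBF1 was higher, at 0.068 (edgeR adjusted p = 5.35e-07). It was correlated with POU4F1, which the rule limits, with r = 0.45 and 0.44, under the limit for testing. Of the 10 PROX1 and TFAP2 motifs of horizontal and amacrine cells, 3 were tested: TFAP2C(var.2) was higher at 0.058, TFAP2B(var.2) was higher at 0.030, and PROX1 was not called, at -0.048. The called TFAP2 values differed between the libraries, 0.074 and 0.036 for TFAP2C(var.2) and 0.044 and 0.0099 for TFAP2B(var.2), and both calls were lost with an estimated dispersion. Of the 7 progenitor homeodomain and PAX6 motifs only 2 were tested, Pax6 at 0.0079 and Six3 at 0.012, and neither was called. Of the SOXB and SOXE motifs of progenitors and glia, 4 were tested: Sox1 was lower at -0.088, SOX8 was lower at -0.062, and SOX10 and SOX21 were not called. SOX8 was at -0.096 in replicate 1 and -0.036 in replicate 2, and lost its call with an estimated dispersion. With no limit on SP and KLF motifs SOX10 was called lower, at -0.017 (edgeR adjusted p = 0.00565). In that setting SOX21 was called lower too, at -0.042 (edgeR adjusted p = 0.000415). Beside the counts of these lists, 17.5% of all tested motifs were called higher and 18.0% lower.

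Some motifs of cell division and Notch signalling were lower. In the E2F family, which drives entry into DNA synthesis, 2 of 5 tested motifs were called lower, E2F7 at -0.056 (edgeR adjusted p = 0.0155) and E2F8 at -0.048, and none higher. E2F7 lost its call with the top 20% of the CRX/OTX score. E2F1 had the lowest log2 ratio of all tested motifs, -0.13 ± 0.061 (SE), and was not called. Against others within the same limits E2F3 was called lower as well, at -0.051 (edgeR adjusted p = 0.0120). E2F4 and E2F6, correlated with KLF16 and untested, stood at 0.021 and 0.020. Of 5 tested HES and HEY motifs, the Notch-driven repressors of neuron formation, HEY1 was lower at -0.054 and HEY2 at -0.041, and the other 3 were not called. Among those, Hes2 was called higher with no limit on SP and KLF motifs, at 0.042 (edgeR adjusted p = 0.000669). The 3 NFI motifs, tied to late progenitors, were not called, between -0.012 and 0.016. With no limit on SP and KLF motifs NFIA was called lower, at -0.020 (edgeR adjusted p = 0.0117), and NFIC higher, at 0.018 (edgeR adjusted p = 0.0375). NFIA was also called lower against others within the same limits, at -0.016 (edgeR adjusted p = 0.0431). For the E2F and HES lists the shares called lower, 2 of 5 each, compare with 18.0% over all tested motifs.

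Motifs of cells from outside the neural retina and of general chromatin were checked beside these. The 4 motifs of pigment epithelium, where MITF and OTX2 act together, were all correlated with SP1 or SP4 and untested, with a median of 0.010 and MITF highest at 0.026. None of the 3 tested microglial motifs was called, with SPI1 at -0.011 and IRF8 at 0.074. IRF8 was called higher against others within the same limits (edgeR adjusted p = 0.0206) and against depth-matched cells (edgeR adjusted p = 0.0343). It was also called with no limit on SP and KLF motifs (edgeR adjusted p = 0.00155). Of 4 tested endothelial and erythroid motifs, Klf1 was higher at 0.034, GATA1::TAL1 was higher at 0.027, and Gata1 was lower at -0.028. The libraries gave 0.035 and 0.013 for GATA1::TAL1 and -0.020 and -0.043 for Gata1. Both lost their call with DESeq2, with the top 20% of the CRX/OTX score and with an estimated dispersion, GATA1::TAL1 also without TMM scaling and with a dispersion of 0, and Gata1 also against depth-matched cells and with the top 10%. All 5 core promoter motifs were untested, with a median of 0.0097. CTCF, the insulator protein, was higher at 0.020. Of the 3 tested SCRT, SNAI2, ZEB1 and ID4 motifs, SNAI2 was higher at 0.027 and ID4 at 0.016. ID4 was at 0.019 and 0.0058 in the 2 libraries and lost its call with DESeq2, against depth-matched cells, with the top 10% of the score and with an estimated dispersion. The shares called in these lists are to be read beside 17.5% higher and 18.0% lower over all tested motifs. Patterns are shared between factors, so the absence of a cell type cannot be read from these counts.

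Beside the lists, the 10 highest and 10 lowest called motifs were taken. After NEUROD1 came TGIF2, a homeodomain repressor, with 1.29 of 10000 counts against 1.16 in replicate 1 and 1.18 against 1.06 in replicate 2, a log2 ratio of 0.15 ± 0.013 (SE; edgeR adjusted p = 1.74e-08). Tcf21, Twist2, TAL1::TCF3 and the identical pair MYF6 and MSC, basic helix-loop-helix motifs of other tissues that read an E-box as NEUROD1 does, were at 0.12, 0.12, 0.11 and 0.11. Hoxa11 was at 0.12, Foxo1 at 0.11, IRF9 at 0.11 and CUX1 at 0.10. With an estimated dispersion Hoxa11 and IRF9, like CUX1, lost their call. Some of these motifs were correlated across cells with TEAD3, which the rule limits, though under the limit for testing. TGIF2 had r = -0.48 and -0.45 with it, CUX1 -0.49 and -0.41, and MYF6 and MSC -0.42 and -0.40. The rule thus bears on their values. TGIF2 stood at 0.21 ± 0.00029 above all cells in ONECUT-high CRX/OTX-high cells and at 0.089 ± 0.0085 in the rest of the set.

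The lowest called motif was ZBTB7B, at -0.098 ± 0.020 (SE; edgeR adjusted p = 0.000515), but its log2 ratio was -0.034 in replicate 1 and -0.17 in replicate 2. Against others within the same limits it was -0.033 and no longer called (edgeR adjusted p = 0.0577, with 1.13e-31 to 0.812 over all its settings). Next came Sox1, with 1.54 of 10000 counts against 1.64 and 1.59 against 1.70, and SRF at -0.081. RFX5, RFX4, RFX2 and RFX3, factors of cilium genes and of MHC class II genes, lay between -0.075 and -0.069. RARA(var.2), a retinoic acid receptor, was at -0.070 and SOX4, a factor of newborn neurons, at -0.069. With an estimated dispersion SOX4 and ZBTB7B lost their call.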

How the data were processed

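The authors deposited, per the file headers, a matrix of whole-number counts of cuts for 579 motifs by barcode for each of 2 libraries, written by software version 1.1.0. Cell Ranger and build mm10 are named per the submitters' processing notes. How peaks were called and motifs searched is not given in the sources used here. The counts summed to 3373212147 and 3932721221. Shares were log2((count + 0.5)/total). Cells were chosen by the rule given in the results, and counts were summed per library over CRX/OTX-high and other cells (4 sums). These were tested with edgeR 4.0.16 in R 4.3.3 (quasi-likelihood F test, TMM, library as block, 1 residual degree of freedom). The dispersion was fixed at 0.001, because edgeR's estimate stopped at its smallest value, 9.77e-05, where its deviance fails for counts this large; this replaced the planned estimate. DESeq2 1.42.0 and limma 3.58.1 were alternatives. The code was tested on simulated data. Python 3.11.15, numpy 2.4.6, pandas 2.3.3, scipy 1.17.1, statsmodels 0.14.6 and matplotlib 3.10.9 did the rest.

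Motifs named are those of the rule, the highest and lowest of each list, and the 10 highest and 10 lowest called motifs with at least 50 counts per cell; identical motifs count once. Some motifs of 3 lists and of the 10 lowest are not reported here; they were taken out after their values were known, and the counts and medians of those lists leave them out. The members, lists and rule were chosen with earlier results of these data known. The libraries carry no replicate numbers shared between groups, since there is 1 group. Alternatives covered scaling, tool, block, comparison cells, depth, score limits and single libraries. Sequences came from RefSeq, build GRCm38.p6.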

Additional observations from a re-analysis of the deposited data

How the results depend on the processing

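The library was the only replicate block. With no replicate block, 0 motifs were called higher and 0 lower, against 66 and 68; the direction of all 45 called motifs named here or in the lists was kept. Leaving motifs out as tied to the rule at r above 0.3 left 200 tested, with 26 higher and 25 lower; at 0.7 it left 505, with 106 higher and 92 lower. The share called moved as well as the count. The share called higher was 13.0% at 0.3 and 21.0% at 0.7, beside 17.5% in the main setting. The share called lower was 12.5% at 0.3 and 18.2% at 0.7, beside 18.0% in the main setting. Why the shares differed was not tested. A log2 ratio of at least 0.05 gave 35 and 20. With no limit on SP and KLF motifs there were 89 higher and 109 lower, CRX/OTX-high cells were 10.8% of cells in place of 7.44%, and the ratio of median totals was 0.864 in place of 0.885; it was 0.899 with a minimum total of 500000. The cause of these moves was not tested. Without that limit LHX2 stood at -0.015 and Sox3 at -0.0029. Against others within the same limits POU4F1 was at 0.012, POU4F3 at 0.0068, POU4F2 at -0.021 and the POU4F median at 0.0068, and the TEAD median was at -0.057 in place of -0.064. The other settings gave 48 to 99 higher and 52 to 94 lower. With an estimated dispersion, 5 of the 21 highest and lowest motifs lost their call (CUX1, Hoxa11, IRF9, SOX4 and ZBTB7B), with DESeq2 and with others within the same limits 1 each (ZBTB7B), and with 8 further settings none. Calls were also gained among the motifs named here or in the lists. There were 10 with no limit on SP and KLF motifs, 5 against others within the same limits and 1 against depth-matched cells. With a single library the share of cells ranged from 7.08% to 7.80%, the ratio of totals from 0.878 to 0.891, and the proneural share from 58.5% to 63.5%. Calls from 1 library could not be made, since no residual degree of freedom is left. Depth limited single cells most for Crx and other motifs of few counts.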

Other observations

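Families were looked at after their values had been seen, taking every motif whose name belongs to the family. TALE homeodomain factors (MEIS, PKNOX, PBX and TGIF) act as partners of other homeodomain proteins. All 10 of their motifs were higher in both libraries, and 8 of 8 tested were called higher by edgeR, beside 17.5% of all tested motifs, from MEIS3 at 0.010 (0.0087 and 0.0044 in the 2 libraries) to TGIF2 at 0.15. TGIF1 was at 0.096, PKNOX1 at 0.097 and PKNOX2 at 0.093, which read nearly the same sequence as TGIF2, and PBX3 at 0.051. MEIS1 and MEIS2, correlated with POU4F3, were untested at 0.014 and 0.019. The 8 tested motifs were also correlated with motifs of the rule, under the limit for testing. Their highest absolute r with any of these ran from 0.31 for PBX2 to 0.48 for TGIF2, both with TEAD3, so the rule bears on these calls. All 5 RFX motifs were called lower, beside 18.0% of all tested motifs, from -0.075 for RFX5 to -0.065 for Rfx1. Of 12 retinoic acid and retinoid X receptor motifs, 6 were called lower, beside the same 18.0%, among them RARA::RXRA at -0.043 and Rarb at -0.047, and Rarg(var.2) was called higher at 0.046; RXRB and Rxra were not called, at 0.015 and 0.0079.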
